A study of Mus musculus with 8 samples.

Results

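The calcium, sodium and pacemaker channel genes are 38 genes that encode subunits of voltage-gated calcium channels, voltage-gated sodium channels and HCN channels, taken from a list of names. They are 38 of the 21951 protein-coding genes of the GENCODE M21 annotation, and each was found there as 1 gene. A peak was counted for a gene when the nearest transcription start site (TSS) of any protein-coding gene was its own, or when the peak lay within 10 kb of its gene body. By this rule 101 of the 15736 deposited peaks belonged to the channel genes. The assay was ATAC-seq, in which Tn5 transposase cuts accessible DNA, on E10.5 mouse hearts of 2 genotypes, with 4 samples each. In Chd4-CMko hearts a floxed Chd4 is deleted by Cre under Tnnt2, so the loss is meant for cardiomyocytes, while the other cells of the heart keep the gene. The comparison group, labelled WT, came from control littermates, and the alleles of the ATAC-seq controls are not given in the sources used here (for stained E10.5 sections, Chd4 fl/fl females were mated to Tnnt2 Cre/+; Chd4 fl/+ males). Each sample pooled several hearts of 1 genotype (4 by the sample labels, 3 by the design text), and cells of the whole dissociated heart were used, with no sorting described. CHD4 is the catalytic ATPase of the repressive NuRD complex, and the comparison asks which sites became more or less accessible in its absence. Peaks enriched in Chd4-CMko hearts are called gained (12991 peaks) and peaks enriched in WT hearts are called lost (2745 peaks). The lists hold 1 score per peak and no value per sample, so no replicate error, number of reads behind a peak or test between the genotypes can be given, and a site that opened further in the same cells cannot be told apart from more cells with an open site.

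Voltage-gated calcium channels are built around a pore-forming alpha1 subunit (Cacna1 genes), joined by an intracellular beta subunit (Cacnb), an extracellular alpha2delta subunit (Cacna2d) and, in skeletal muscle, a gamma subunit (Cacng). In the heart the L-type channel triggers contraction, while T-type calcium channels and HCN channels contribute to pacemaking. P/Q-, N- and R-type calcium channels admit the calcium that triggers transmitter release at synapses. Several Cacng proteins escort AMPA receptors, and most of the listed Scn genes encode the sodium channels of neurons. The genes were grouped from this general knowledge as cardiac (8 genes), neuronal (25), skeletal muscle (4) and retinal (1), although many act in more than 1 tissue.

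The sequences below show what the differential sites at channel gene promoters look like, next to the highest-scoring gained site of a cardiac gene and the highest-scoring lost site. They were read from the mm10 reference (GRCm38), 5′ to 3′ on the strand of the gene, and bases that fall in annotated untranslated exons were left out. Capitals mark matches, on either strand, to 11 strings. For cardiac factors these were the sites of MEF2 (searched as a string with ambiguous letters that is not spelled out here), of the GATA family, written AGATAAG, of the TEAD factors of Hippo signalling, written ACATTCC, of NKX2-5 and its relatives, written TNAAGTG, and of the T-box factors, here called TBX, written AGGTGTG. The E-box of myogenic bHLH factors was searched as CAGCTG, and AP-1, the site of FOS and JUN, as TGANTCA. For promoters in general, the NFY site was searched as CCAAT and the GC box, bound by SP1 and its relatives, as GGGCGG. The site of REST, which represses neuronal genes, is called RE1, and its left part was searched as TCAGCACC, while its right part was searched as GGACAG. The strings do not contain one another, and bases covered by matches to more than 1 of them are shown once in capitals. A match is a description of the letters and not evidence of binding. The first set holds gained peaks within 1 kb of a start of a coding transcript, in order from the cardiac to the neuronal and the skeletal muscle genes:
Cacna1c, gained, chr6:119107396-119107546, minus strand: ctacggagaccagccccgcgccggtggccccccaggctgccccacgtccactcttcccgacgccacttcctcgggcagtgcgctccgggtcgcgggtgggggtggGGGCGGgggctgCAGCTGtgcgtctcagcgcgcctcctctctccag
Hcn2, gained, chr10:79716514-79716633, plus strand: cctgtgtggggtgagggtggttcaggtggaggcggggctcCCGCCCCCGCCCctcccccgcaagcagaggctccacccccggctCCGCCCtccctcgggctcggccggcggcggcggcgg
Cacna1a, gained, chr8:84414311-84414461, plus strand: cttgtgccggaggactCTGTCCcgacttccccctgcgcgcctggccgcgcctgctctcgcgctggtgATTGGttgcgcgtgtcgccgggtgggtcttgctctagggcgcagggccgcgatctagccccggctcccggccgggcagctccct
Cacna1b, gained, chr2:24763153-24763261, minus strand: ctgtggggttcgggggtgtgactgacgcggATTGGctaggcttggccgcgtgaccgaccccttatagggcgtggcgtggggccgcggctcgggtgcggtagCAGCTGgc
Cacna2d3, gained, chr14:29721933-29722083, minus strand: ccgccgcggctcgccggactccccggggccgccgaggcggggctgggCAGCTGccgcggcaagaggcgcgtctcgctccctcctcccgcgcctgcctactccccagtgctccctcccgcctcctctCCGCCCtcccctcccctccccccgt
Cacng4, gained, chr11:107794746-107794896, minus strand: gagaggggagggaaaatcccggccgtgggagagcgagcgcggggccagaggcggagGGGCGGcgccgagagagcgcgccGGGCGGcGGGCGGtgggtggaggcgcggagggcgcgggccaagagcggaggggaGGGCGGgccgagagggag
Cacng7, gained, chr7:3332756-3332906, plus strand: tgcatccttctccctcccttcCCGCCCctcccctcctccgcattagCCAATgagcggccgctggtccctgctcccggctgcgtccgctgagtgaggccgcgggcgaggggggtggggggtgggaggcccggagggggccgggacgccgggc
Cacng8, gained, chr7:3390130-3390280, plus strand: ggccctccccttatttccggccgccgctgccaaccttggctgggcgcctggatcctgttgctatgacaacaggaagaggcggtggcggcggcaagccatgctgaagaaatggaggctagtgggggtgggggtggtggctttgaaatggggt
Scn3b, gained, chr9:40269138-40269216, plus strand: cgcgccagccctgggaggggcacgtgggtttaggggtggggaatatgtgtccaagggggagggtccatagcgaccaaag
Cacng6, gained, chr7:3423516-3423666, plus strand: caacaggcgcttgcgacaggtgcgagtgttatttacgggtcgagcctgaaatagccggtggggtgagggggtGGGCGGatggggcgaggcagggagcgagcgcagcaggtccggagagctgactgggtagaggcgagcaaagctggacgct

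The gained promoter peaks of Cacna2d2 and Cacnb3 lie almost wholly in untranslated exons and are not printed. The second set holds the gained peak of highest score at a cardiac gene, in intron 2 of Cacna1h, then the lost peak of highest score, in intron 3 of Cacna1c, and the lost peak 146 bp upstream of an internal coding start of Cacnb2:
Cacna1h, gained, chr17:25405289-25405439, minus strand: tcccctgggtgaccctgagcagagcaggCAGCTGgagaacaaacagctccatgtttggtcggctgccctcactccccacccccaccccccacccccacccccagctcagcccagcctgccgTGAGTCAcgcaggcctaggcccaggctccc
Cacna1c, lost, chr6:118819793-118819943, minus strand: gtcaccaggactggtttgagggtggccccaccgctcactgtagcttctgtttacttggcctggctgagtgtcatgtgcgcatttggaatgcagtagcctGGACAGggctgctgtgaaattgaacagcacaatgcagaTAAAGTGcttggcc
Cacnb2, lost, chr2:14823871-14824021, plus strand: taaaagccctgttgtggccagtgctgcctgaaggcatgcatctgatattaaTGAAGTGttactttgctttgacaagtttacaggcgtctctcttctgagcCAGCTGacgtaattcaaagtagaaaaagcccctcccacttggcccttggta

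Gained peaks were found at 30 of the 38 channel genes (78.9%, 95% Wilson interval 63.7 to 88.9), where 37.4% of all protein-coding genes had at least 1. Lost peaks were found at 8 of 38 (21.1%, 11.1 to 36.3), where 10.8% of all genes had at least 1. In all, 87 gained and 14 lost peaks were assigned, so that 86.1% of the channel gene peaks were gained (78.1 to 91.6), beside 82.6% of the whole lists. These intervals cover counting error only. Of the 87 gained peaks, 19 were also assigned to a gene outside the channel genes, and 12 had their nearest coding TSS at such a gene. The 8 genes with a lost peak also had a gained one, and 8 genes had neither. The plot of peaks per gene shows how unequal the counts were: Cacna1c held 12 gained peaks, Cacna1a 10 and Scn8a 8, which together make 30 of the 91 counted gene by gene.

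**Figure D1:**
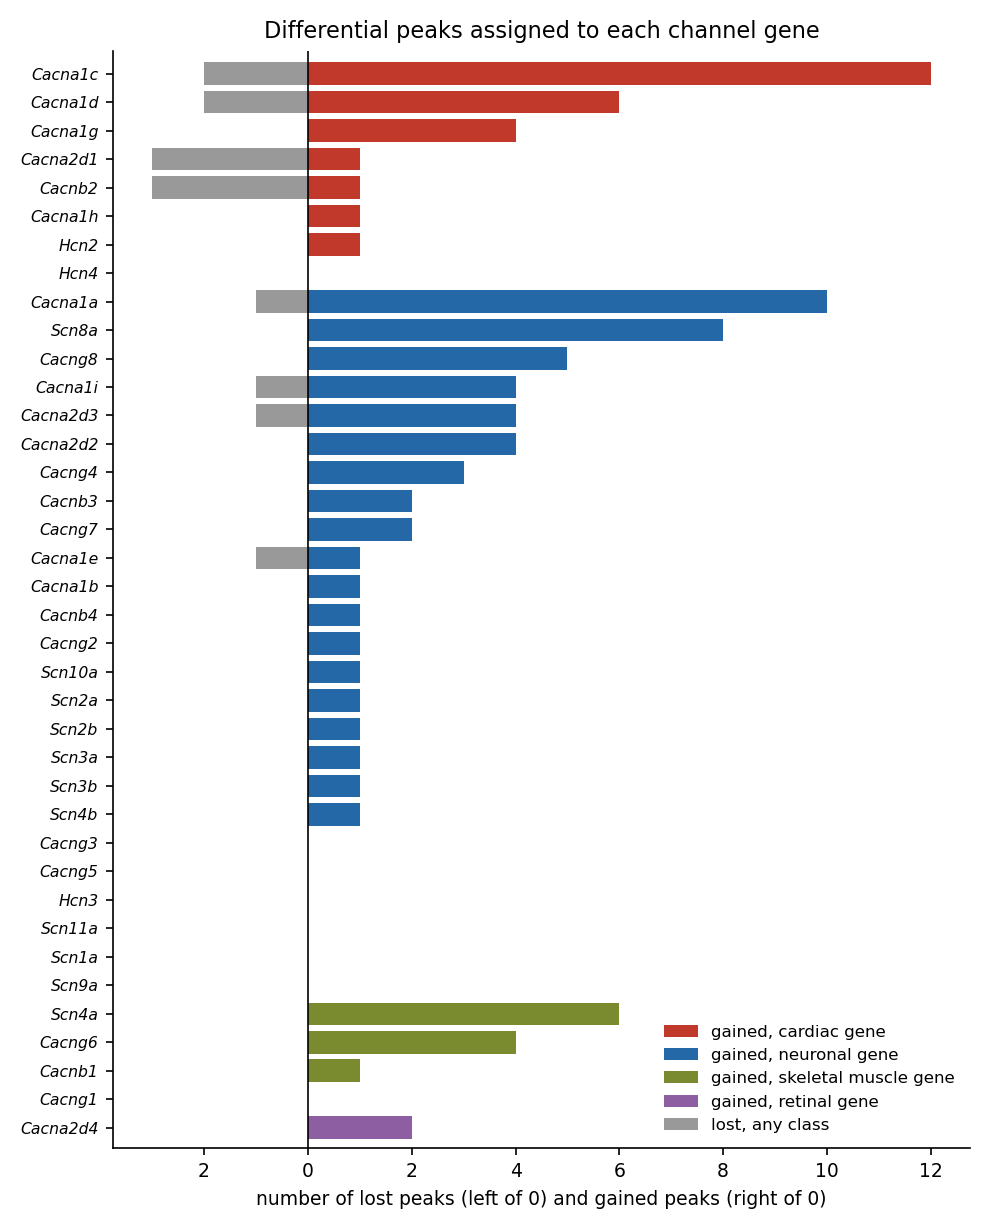
Number of gained peaks (right of 0, coloured by class) and lost peaks (left of 0, grey) assigned to each of the 38 channel genes. Cacna1c leads with 12 gained peaks, and Cacna2d1 and Cacnb2 are the 2 genes with more lost than gained peaks (3 and 1 each).

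Channel genes are long, and long genes collect more peaks, so the counts were set beside genes of like length. Among all protein-coding genes, at least 1 gained peak was found at 27.3% of those under 20 kb, 42.8% of those of 20 to 100 kb, 66.0% of those of 100 to 300 kb and 77.1% of those over 300 kb. Summed over the lengths of the channel genes, these shares come to 20.2 genes, against the 30 seen. For lost peaks the shares by length were 4.66%, 11.8%, 32.8% and 49.0%, which sum to 8.95 genes, against the 8 seen. The excess over all genes in lost peaks was therefore not seen against genes of like length. For at least 3 gained peaks, 12 channel genes qualified (31.6%, 19.1 to 47.5) beside 7.81% of all genes and a sum of 6.95 by length. The median density was 1.27 gained peaks per 100 kb of gene body with 10 kb flanks, ranging up to 11.1 at Cacng8, while the median protein-coding gene had 0. By length class, the medians of the channel genes and of all genes were 2.80 and 0 under 20 kb, 2.38 and 0 at 20 to 100 kb, 0.764 and 0.515 at 100 to 300 kb, and 0.348 and 0.254 over 300 kb. The medians were thus closer among the longer genes than among the shorter ones. Placed among genes of its own length class, Cacna1a had as many gained peaks as the top 0.987%, Scn4a as the top 0.991%, Cacng6 as the top 1.31%, Cacng8 as the top 1.79%, Cacna1c as the top 1.94% and Scn8a as the top 2.39%. At the other end, the single gained peak of Cacna2d1, Cacnb2 and Cacna1e was matched or exceeded by 77.1% of genes of their length.

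**Figure D2:**
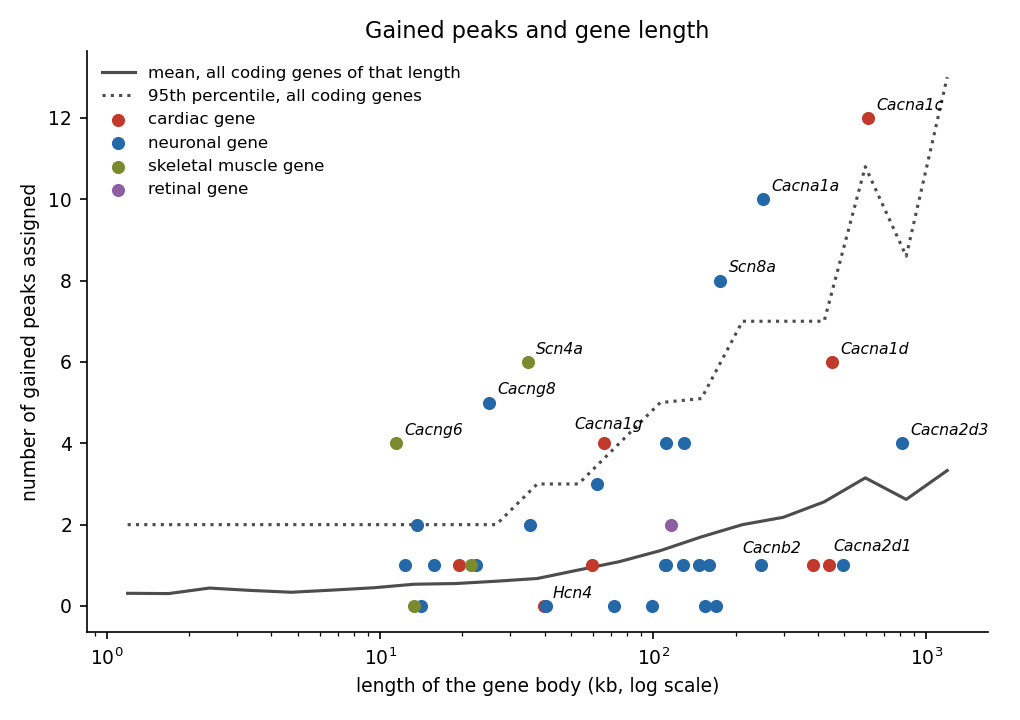
Gained peaks assigned to each channel gene against gene length (kb, log axis), with the mean (solid line) and 95th percentile (dotted line) of all protein-coding genes of like length. Cacna1c (12), Cacna1a (10), Scn8a (8), Scn4a (6), Cacng8 (5), Cacng6 (4) and Cacna1g (4) lie above the dotted line, and Hcn4 lies at 0 (with 1 TSS per gene it would have a gained peak).

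Among the cardiac pore genes, Cacna1c, which encodes the L-type channel that carries the calcium current of the heartbeat, had the most peaks. Its gene body (chr6:118587240-119196418, minus strand, 609 kb) held 12 gained and 2 lost peaks. Of the gained peaks, 8 lay in intron 3 and 2 in intron 1 of the longest coding transcript, with scores between 43.5 and 150 over the 12. The score is the number the authors deposited with each peak. Its scale is not given in the sources used here, so scores are compared within 1 list only. The gained peak of score 150 lay at chr6:119107396-119107546, 504 bp inside intron 1 from an internal coding start, and had a GC content of 75.5%, higher than the other 11 at this gene. From the 3′ side of the gene, the peaks in intron 8 and intron 3 lay, with their scores, at chr6:118737158-118737308 (82), chr6:118800526-118800676 (59), chr6:118820425-118820575 (89), chr6:118831017-118831167 (67) and chr6:118833200-118833350 (43.5). Further towards the 5′ side of intron 3 lay chr6:118845886-118846036 (49), chr6:118922558-118922708 (63), chr6:118934757-118934907 (45.5) and chr6:119025762-119025912 (72). The last 2 lay at chr6:119098385-119098535 (83) in intron 1 and at chr6:119130901-119131051 (50) in an intron of another transcript. The lost peaks lay at chr6:118819793-118819943 in intron 3 (score 96.5, the 95.8th percentile of the lost list) and chr6:118732035-118732185 in intron 9 (88.8, 94.8th percentile). The intron 3 lost peak had its centre 632 bp from that of a gained peak of score 89, the closest pair of opposite direction at any channel gene. No gained and lost peak overlapped at a channel gene.

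Cacna1d encodes the L-type pore of the sinoatrial node and of neurons (chr14:30039939-30491455, minus strand). It had 6 gained peaks, all within the gene body and with scores from 37.5 to 75, and 2 lost peaks, of scores 35 and 25.8, at chr14:30261895-30262045 in intron 3 and chr14:30394214-30394364 in an intron of another transcript. The gained peaks, with their scores, were chr14:30104230-30104380 (75), chr14:30109195-30109345 (44.5), chr14:30169588-30169738 (57), chr14:30265874-30266024 (40.5), chr14:30417952-30418102 (37.5) and chr14:30429720-30429870 (74). No peak came within 1 kb of a start of this gene, and 2 of its gained peaks were nearer to the TSS of the neighbour Dcp1a. Cacna1g and Cacna1h encode T-type pores. Cacna1g (chr11:94408391-94474198) had 4 gained peaks with scores from 65.5 to 93, of which 3 were intronic and the fourth, 9496 bp upstream, lay 718 bp from a start that belongs to another gene. They lay, with their scores, at chr11:94419042-94419192 (93), chr11:94429198-94429348 (88.5), chr11:94468903-94469053 (81) and chr11:94483619-94483769 (65.5). Cacna1h (chr17:25374285-25433783) had a single gained peak, in intron 2 at chr17:25405289-25405439, whose score of 257.5 (95.6th percentile) was the highest of the cardiac genes.

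The neuronal pore genes did not share 1 pattern. Cacna1b, the N-type pore of presynaptic terminals, had 1 gained peak, and this peak covered its start at chr2:24763111-24763261 with a score of 506. That score was the highest at any channel gene and the 99.8th percentile of the gained list. Cacna1a, the P/Q-type pore, had 10 gained peaks along its 252 kb body (chr8:84388440-84640246), with scores from 41 to 152. The peak of score 152 lay 978 bp upstream of a coding start (chr8:84414311-84414461), and another of score 138.5 covered coding exon 19 (chr8:84559408-84559558). The remaining 8 lay in introns 3 to 39, 1 of them over the start of an internal transcript with a retained intron (chr8:84601297-84601447). The others, with their scores, were chr8:84502083-84502233 (41), chr8:84551530-84551680 (69), chr8:84567685-84567835 (46) and chr8:84570367-84570517 (50) in introns 3 to 22 and chr8:84600305-84600455 (74), chr8:84616269-84616419 (67.5) and chr8:84629642-84629792 (46) in introns 31 to 39, and the peak over the internal start had 61.5. Its lost peak, of score 43, lay in intron 3 at chr8:84506088-84506238, 4005 bp from a gained peak.

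Cacna1i, the T-type pore of the brain, had 4 gained peaks, at chr15:80364773-80364923 (50) and chr15:80374914-80375064 (30) inside the gene and at chr15:80409268-80409418 (71) and chr15:80440237-80440387 (78.5) past its end, with the score in parentheses. Its lost peak lay in intron 2 (chr15:80306247-80306397, score 41.2). Cacna1e, the R-type pore, had 1 gained peak of low score (29, the 7.75th percentile), 75544 bp upstream of its nearest annotated start (chr1:154959970-154960120), and 1 lost peak of score 15.9 in intron 25 (chr1:154456134-154456284), the 0.729th percentile of the lost list. Both Cacna1e calls thus sat near the low ends of their lists, and 100% of the bases of the lost one were soft-masked as repeats. Each of the 8 pore genes of calcium channels had a gained peak, where the shares by length sum to 5.15, and 5 had a lost peak, where they sum to 2.69.

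The alpha2delta and beta subunits raise the number of pores at the membrane. Gained peaks were found at 4 of 4 alpha2delta genes (2.86 by length) and 4 of 4 beta genes (2.13 by length). Lost peaks were found at 2 alpha2delta genes (1.64 by length) and 1 beta gene (0.983 by length), near the shares of genes of their length. Cacna2d1, the alpha2delta subunit of the cardiac L-type channel (chr5:15934691-16374511), had 1 gained peak in intron 1 of score 45.5 (chr5:15992061-15992211). Its 3 lost peaks lay in introns 1, 5 and 7, at chr5:16002407-16002557 (29.1), chr5:16199946-16200096 (35.5) and chr5:16253896-16254046 (22.9), with the score in parentheses. Cacnb2, the main cardiac beta subunit (chr2:14603088-14987908), likewise had 1 gained and 3 lost peaks. The gained peak (chr2:14571432-14571582, score 56) lay upstream of the gene and was assigned by nearest TSS alone. The lost peaks lay in intron 2 of the longest transcript, at chr2:14807974-14808124 (score 29.1), chr2:14823871-14824021 (73.4) and chr2:14874026-14874176 (30). The last 2 were 146 and 320 bp from internal coding starts, and Cacnb2 was the 1 channel gene with a lost peak within 1 kb of a start, a class that takes in 0.592% of all genes.

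Cacna2d2, an alpha2delta subunit of the cerebellum, had 4 gained and no lost peaks, and all 4 scores were high. The peak 111 bp inside its start (chr9:107399648-107399798) had a score of 310 (97.7th percentile), and those further in, at chr9:107409577-107409727, chr9:107445324-107445474 and chr9:107464307-107464457, had 199, 152 and 169.5. Cacna2d3, also a subunit of neurons, had a gained peak of score 200 144 bp upstream of its start (chr14:29721933-29722083). Its 3 other gained peaks, deep in introns 17, 24 and 35, were chr14:29080809-29080959 (37.5), chr14:29052442-29052592 (49.5) and chr14:28923665-28923815 (37.5). A lost peak of score 79.5 lay in intron 31 (chr14:28959200-28959350, 92.5th percentile). Cacnb3, a beta subunit of neurons and smooth muscle, had a gained peak of score 332.5 (98.4th percentile) 160 bp from a coding start (chr15:98634852-98635002) and another of 52.5 in intron 3 (chr15:98640262-98640412). Cacnb4, mutated in epileptic lethargic mice, had 1 gained peak of score 44 in intron 12, which was nearer to the TSS of the neighbour Arl5a. Cacnb1, the beta subunit of skeletal muscle, had 1 of 185.5 in coding exon 13, and Cacna2d4, the subunit of photoreceptors, had 2, of 43.5 in coding exon 11 (chr6:119271338-119271488) and 78 in intron 26 (chr6:119329212-119329362), the second of them 83 bp from the start of another gene.

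No gamma gene had a lost peak, where 1.01 genes would by length. Of 8 genes 5 had a gained peak, where the shares by length sum to 3.34, and 4 had 1 within 1 kb of their start, where they sum to 0.813. Cacng7, Cacng8 and Cacng6 lie side by side on chromosome 7. Cacng7 had gained peaks 937 bp (chr7:3331943-3332093, score 299) and 124 bp (chr7:3332756-3332906, score 100.5) upstream of its start. Cacng8 had 1 upstream at chr7:3390130-3390280 (score 67) and 1 in intron 2 at chr7:3391922-3392072 (score 39). A further 3 peaks were counted for both Cacng8 and Cacng6, at chr7:3411339-3411489 (374.5, the 99.1th percentile and the highest of the skeletal muscle genes), chr7:3415552-3415702 (218) and chr7:3423516-3423666 (120.5). The last lay 604 bp upstream of Cacng6, a gamma subunit of muscle, which had a peak of its own in coding exon 2 (chr7:3430397-3430547, score 34). Cacng4 had 2 gained peaks at its start, 264 bp upstream (chr11:107794746-107794896, score 136) and 801 bp inside (chr11:107793681-107793831, score 82.5), and 1 further upstream at chr11:107849695-107849845 (73.5). Cacng2, the gene of stargazin, had 1 of 132.5 in intron 2, which was nearer to the TSS of Eif3d, and Cacng3, Cacng5 and Cacng1 had none.

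The sodium channel genes had 19 gained peaks and 0 lost ones. A gained peak was found at 5 of 8 pore genes, close to the 4.81 by length, and at 3 of 3 beta subunit genes (0.974 by length). By length, 2.21 pore genes and 0.211 beta subunit genes would have a lost peak. Scn8a, which sets the firing threshold of many neurons, had 8 (chr15:100869858-101045938). The 3 in intron 1, at chr15:100908898-100909048, chr15:100925832-100925982 and chr15:100934790-100934940, had scores of 70.5, 32 and 36, and those in introns 6, 15 and 21 were chr15:100962184-100962334 (29), chr15:101011507-101011657 (41.5) and chr15:101026134-101026284 (30.5). The highest-scoring pair, chr15:101046592-101046742 (148) and chr15:101052936-101053086 (180), lay past the end of the gene and nearer to the starts of Fignl2 and Gm47841, so the rule counts them for these genes too. Without that pair, the scores of the Scn8a peaks did not exceed 70.5. Scn4a, the pore of skeletal muscle (chr11:106318592-106353288), had 6 gained peaks of which 3 were nearer to Cd79b. These 3 were chr11:106313732-106313882 (39), chr11:106328705-106328855 (85.5) and chr11:106329242-106329392 (107.5), and the others were chr11:106334126-106334276 (74.5), chr11:106350979-106351129 (91.5) and chr11:106355902-106356052 (62.5). Scn2a, Scn3a and Scn10a had 1 peak each, of scores 21.5 (the 0.416th percentile, in a repeat), 30 (chr2:65508363-65508513, in intron 12) and 50.5. Scn1a, Scn9a and Scn11a had none. None of the 8 pore genes of sodium channels had a gained peak within 1 kb of a start, where the shares by length sum to 1.10. Of the beta subunits, Scn3b had a peak over its start at chr9:40269138-40269288 (score 149). Scn2b and Scn4b, adjacent genes, shared 1 peak of 198.5 between them (chr9:45136887-45137037, 1433 bp upstream of Scn4b).

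The HCN genes encode the channels of the pacemaker current. Hcn2 had 1 gained peak, which covered its start at chr10:79716514-79716664 with a score of 120 and a GC content of 81.5%, and which was also counted for the neighbour Bsg. Hcn4, the main pacemaker channel of the sinoatrial node (chr9:58823412-58863175), had no peak of either list by the rule used here. With 1 TSS per gene, in place of every transcript start, a gained peak was assigned to it, and 8 of 8 cardiac genes had one. Its nearest gained peak, of score 35.5, lay 56.2 kb from the gene body and its nearest lost peak, of score 77.3, 55.8 kb away. For Hcn3, the nearest gained peak lay 22.5 kb from the gene body. For the other 6 genes with no peak, the nearest gained peak lay between 24.8 kb (Cacng5) and 494 kb (Scn9a) from the gene body. A site missing from both lists was not called different between the genotypes, which does not show that it was closed or unchanged.

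**Figure D3:**
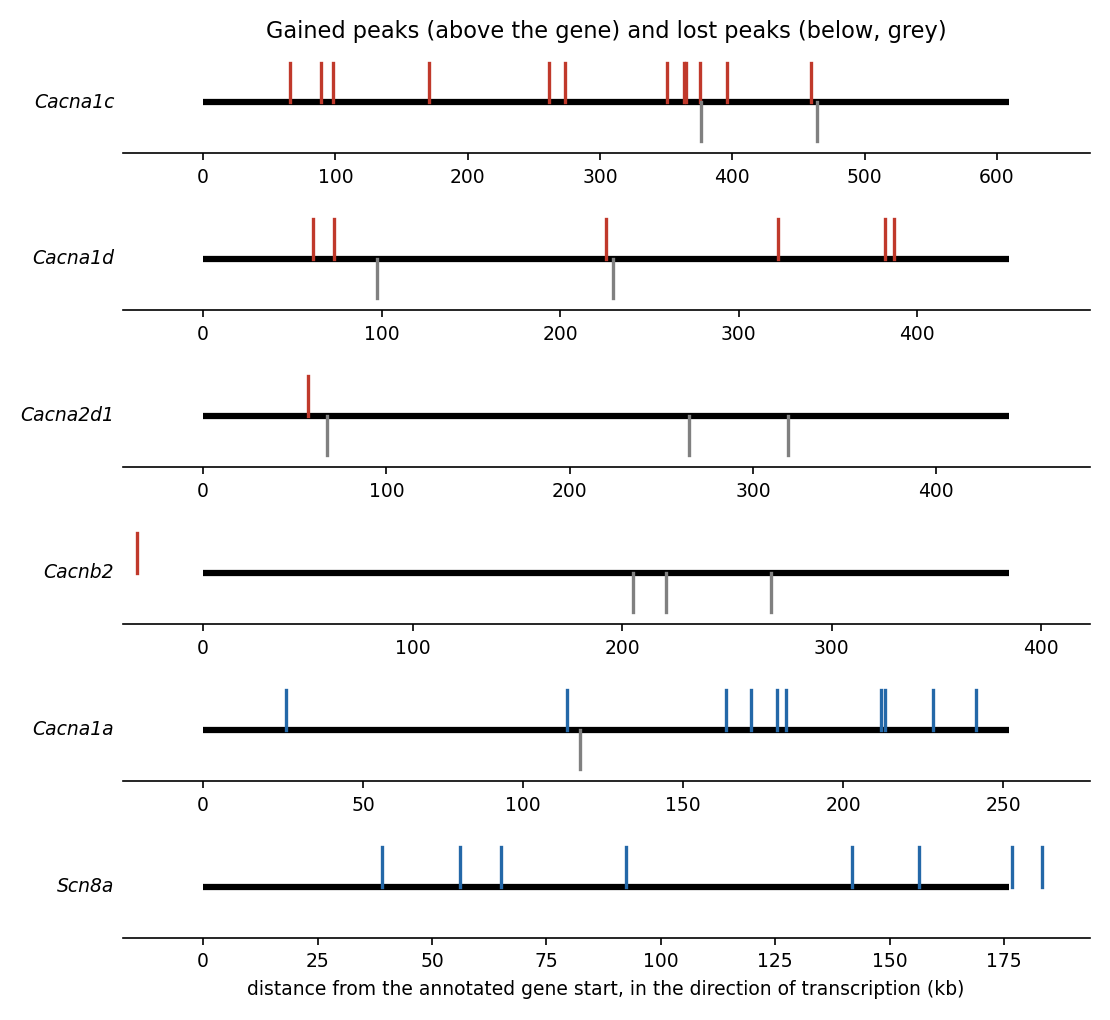
Positions of gained peaks (above the line, red for cardiac and blue for neuronal genes) and lost peaks (below, grey) along 6 channel genes, in kb from the annotated gene start in the direction of transcription; each gene has its own scale. The lost peaks of Cacna2d1 and Cacnb2 outnumber the gained ones, while the 12 peaks of Cacna1c and 10 of Cacna1a spread over most of the gene.

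Gained peaks within 1 kb of a start of their own gene were found at 12 of 38 channel genes (31.6%, 19.1 to 47.5), beside 9.10% of all protein-coding genes and a sum of 4.70 genes by length. These 12 are Cacna1c, Hcn2, Cacna1a, Cacna1b, Cacna2d2, Cacna2d3, Cacnb3, Cacng4, Cacng7, Cacng8, Scn3b and Cacng6. At coding starts they held 14 peaks, with a median score of 149.5 (67 to 506), whereas the other 73 gained peaks had a median of 62.5 (21.5 to 374.5). The whole gained list showed the same order, with a median of 126.5 for peaks within 1 kb of any TSS and 55.5 for those further away. Counted in that same way, the 25 channel gene peaks within 1 kb of any TSS had a median of 120.5 and the 62 further away a median of 60.75. The plot of score against distance shows the 14 gained peaks at coding starts left of the dashed line, and 2 lost peaks of Cacnb2 there too.

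**Figure D4:**
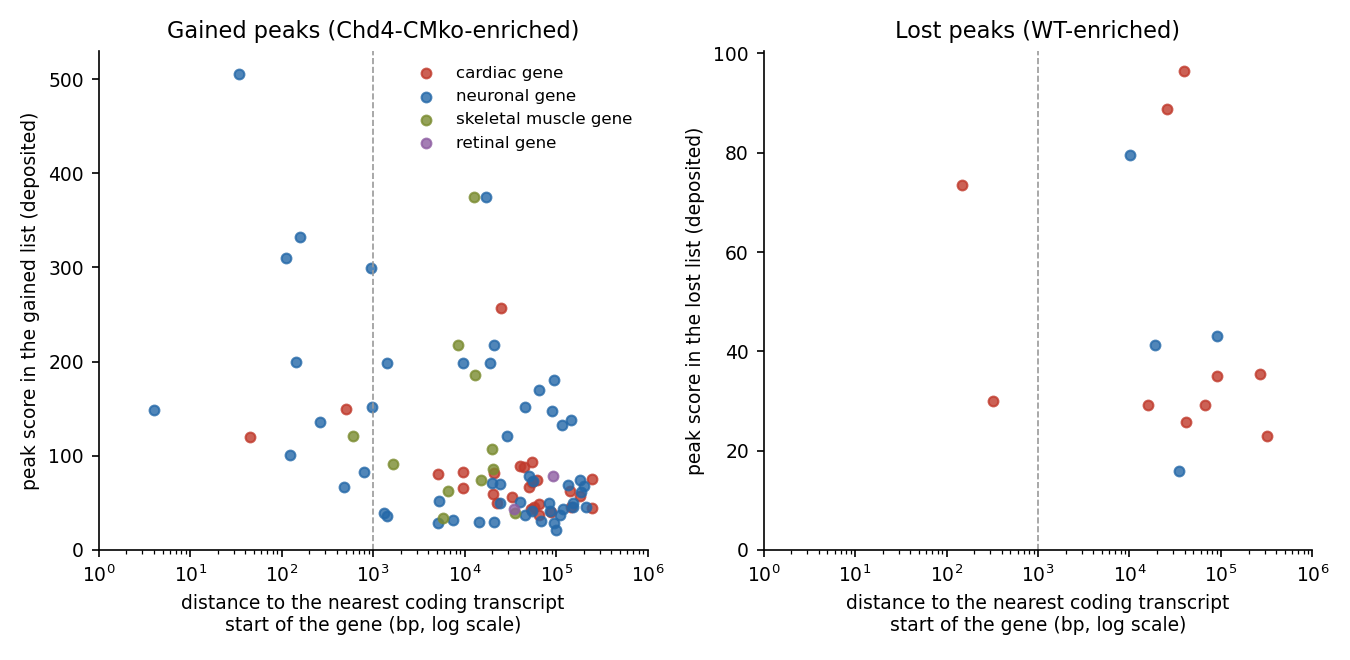
Deposited score of each gained (left) and lost (right) peak of the channel genes against its distance to the nearest coding transcript start of that gene (bp, log axis), coloured by class; peaks counted for 2 genes appear once for each, and the dashed line marks 1 kb. Gained peaks within 1 kb have scores from 67 to 506, and most further ones lie below 100; the 2 panels have different score axes.

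The cardiac and neuronal genes did not differ detectably in how many had a gained peak. A difference in place was seen over peaks, set against a TSS of any gene. Over genes, set against their own starts, no difference in place was resolved. A difference in direction over peaks was not resolved with score limits. A gained peak was found at 7 of 8 cardiac and 19 of 25 neuronal genes, a difference of 11.5 percentage points with a 95% Newcombe interval of -25.3 to 33.5, where the shares by length sum to 4.64 and 13.5 genes. A lost peak was found at 4 of 8 and 4 of 25 genes, a difference of 34.0 points (-0.0437 to 64.1), which includes 0. The cardiac genes with lost peaks were Cacna1c, Cacna1d, Cacna2d1 and Cacnb2, each over 300 kb long, and by length 2.36 cardiac and 5.93 neuronal genes would have one. The neuronal genes of that length, Cacna1e and Cacna2d3, had a lost peak too, so that all 6 channel genes over 300 kb did, beside 49.0% of all genes of that length. Counted over peaks, 10 of 36 cardiac peaks were lost (27.8%) and 4 of 55 neuronal peaks (7.27%), a difference of 20.5 points (4.95 to 37.3). Of the whole lists 17.4% were lost, a share inside the cardiac interval (15.8 to 44.0) and just above the neuronal one (2.86 to 17.3). The second placing depended on the rule. The upper neuronal limit was 19.9 with nearest TSS only and 18.5 within 10 kb of the gene body only. With 1 TSS per gene it was 16.2. With each list limited to scores at or above its own median, 3 of 18 cardiac peaks (16.7%) and 3 of 32 neuronal ones (9.38%) were lost, a difference of 7.29 points (-11.1 to 30.7). With the median of the lost list (36.8) as the limit for both lists, whose scales need not be the same, the counts were 3 of 29 (10.3%) and 3 of 46 (6.52%), a difference of 3.82 points (-9.07 to 20.4). Both intervals include 0, so the difference seen over all peaks was not resolved with either limit. With no score limit and without Cacna1c, the cardiac share of lost peaks was 36.4% (8 of 22), beside 27.8% with it.

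Gained peaks of cardiac genes lay within 3 kb of a TSS of any gene in 6 of 26 cases (23.1%), and those of neuronal genes in 28 of 51 (54.9%), a difference of -31.8 points (-49.4 to -8.53). Within 1 kb the counts were 3 of 26 and 20 of 51, a difference of -27.7 points (-43.3 to -6.40). In the whole gained list 30.6% of peaks lay within 3 kb of a TSS and 20.5% within 1 kb, between the values of both classes. Counted over genes, 2 of 8 cardiac and 9 of 25 neuronal genes had a gained peak within 1 kb of their own start. The difference was -11.0 points (-37.4 to 26.5) and was not resolved. This count takes only starts of the gene itself, while the counts over peaks take a TSS of any gene. The measures thus differ in the starts as well as in the unit counted. Of the gained peaks, 2 cardiac and 12 neuronal ones lay within 1 kb of a coding start of their own gene. Peaks of 1 gene are not independent, and the intervals over peaks are too narrow for that reason. Without Cacna1c the cardiac share within 3 kb was 28.6%, and without Cacna1a the neuronal share was 56.1%. Outside these 3 kb windows, introns held 19 of the 26 cardiac peaks. No peak was shared by a cardiac and a neuronal gene.

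**Figure D5:**
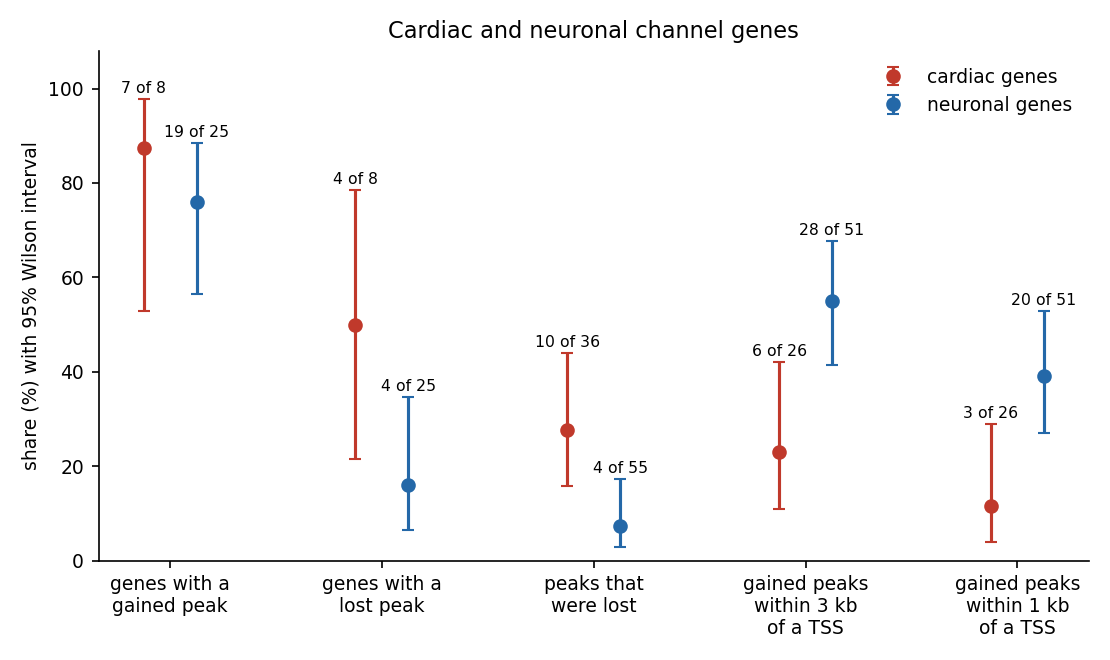
Shares (%) of cardiac (red) and neuronal (blue) channel genes or of their peaks, with 95% Wilson intervals that cover counting error only; the counts stand above each interval. The share of lost peaks was 27.8% at cardiac and 7.27% at neuronal genes, and that of gained peaks within 3 kb of a TSS 23.1% and 54.9%.

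In base composition, the gained channel gene peaks had a mean GC content of 60.0% (SD 9.15, n = 87 peaks), beside 56.7% (SD 8.55) for all gained peaks. Without peaks within 3 kb of a TSS the means were 55.9% and 54.2%. The 14 peaks at coding starts of the channel genes reached 73.6% (SD 6.03). The 14 lost peaks had a mean of 49.7% (SD 5.29), beside 50.5% for the lost list. Among the strings marked in capitals, the GC box was found in 27.6% of the gained channel gene peaks and 22.5% of all gained peaks, NFY in 28.7% and 29.3%, and the E-box in 23.0% and 13.2%. The E-box interval (15.4 to 32.9) lay above the share in the list, and the 20 peaks with it came from 14 genes, among them Cacna1a, Cacna1b, Cacna1h and Scn4a. The right part of RE1 was found in 18.4% and 16.9%, and the left part in 2.30% and 1.64%, in 1 peak of Cacna1d and 1 of Scn4a. GATA (4.60% and 5.45%), TEAD (4.60% and 3.76%), TBX (2.30% and 5.19%), AP-1 (2.30% and 5.08%) and MEF2 (1.15% and 3.26%) were each in 4 or fewer peaks.

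The NKX string, bound by the cardiac factor NKX2-5 in general, was found in 6 of the 14 lost peaks (42.9%, 21.4 to 67.4) beside 9.91% of the lost list. These were both lost peaks of Cacna1c and 1 each of Cacna1d, Cacnb2, Cacna1a and Cacna2d3, so both classes held it (4 of 10 cardiac and 2 of 4 neuronal peaks). Among the gained peaks it was in 2 of 87 (2.30%), both in Cacna1c, beside 6.87% of the gained list. AP-1 was in 2 of the 14 lost peaks (247 of the 2745 in the list) and the GC box in none (81 of 2745), near the shares of the list. With 11 strings in 2 lists, and letters this short, such shares are descriptions of a few peaks.

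RefSeq promoters (GRCm38.p6, 250 bases before to 50 after each start) were matched for 29 of the 38 genes, with 40 promoters in all. A gained peak overlapped those of Cacna1b, Cacna2d2, Cacna2d3, Cacng7 and Hcn2, and a lost peak overlapped 1 of the pair at Cacnb2. The share of all promoters with such an overlap is not given here, so whether these numbers are high was not tested. Median promoter GC content was 71.7% over the 10 cardiac promoters and 58.5% over the 26 neuronal ones, against 52.7% over all 32851 promoters of the table, and the promoter of Hcn4, at 71.7%, had no peak. Over that table the GC box was found in 35.7% of promoters, NFY in 37.4%, the right part of RE1 in 22.2%, the E-box in 16.3%, NKX in 11.5%, AP-1 in 7.81%, TBX in 5.84%, TEAD in 3.85%, MEF2 in 3.19%, GATA in 3.04% and the left part of RE1 in 1.65%.

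Genes whose proteins work with these channels were counted by the same rule. Of 8 regulators of pacemaker tissue, 5 had a gained peak (2.49 by length) and 4 a lost one (0.516 by length). Tbx3 and Tbx5, T-box factors of the conduction system, had 8 and 6 gained peaks and 0 lost, whereas Tbx18, which shapes the sinus node, had 2 lost and 0 gained. Isl1 had 2 gained and 1 lost. Of 13 partners in excitation-contraction coupling, 5 had a gained peak (6.43 by length) and 1 a lost one (2.79 by length). That gene was Ryr2, the long gene of the calcium release channel, with 3 lost peaks and 1 gained. Jph2, which holds the junction of membrane and calcium store together, had 2 gained peaks of up to 212.5. Of 10 presynaptic partners, 8 had a gained peak (5.65 by length) and 1 a lost one (2.67 by length), with gained scores up to 581.5 at Unc13a, a priming factor of synaptic vesicles. Of 10 partners of sodium channels 6 had a gained peak (6.57 by length), among them Ank3 with 7, and 3 a lost one (3.62 by length). Of 4 AMPA receptor genes, Gria1 and Gria3 had a gained peak (2.86 by length) and Gria3 a lost one (1.64 by length).

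Markers of the cell types that these hearts could hold were counted likewise. A gained peak was found at 10 of 14 cardiomyocyte markers (5.14 by length, among them Tnnt2 with 1 of score 107), 10 of 13 neuronal markers (6.09), 3 of 6 neural crest and glial markers (1.79), 9 of 9 skeletal muscle markers (3.00), 5 of 6 endothelial markers (2.64) and 0 of 6 erythroid markers (1.79). A lost peak was found at 5 of 6 erythroid (0.351), 3 of 13 neuronal (2.41), 1 of 6 neural crest and glial (0.351), 1 of 6 endothelial (0.847) and none of the cardiomyocyte and skeletal muscle markers. Lists of differential peaks cannot show which cell types were present. Gained peaks were thus above the shares by length in each marker list but the erythroid one, and the part of cell composition in the channel gene peaks was not tested.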

How the data were processed

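ATAC-seq libraries of E10.5 hearts (4 Chd4-CMko, 4 WT) were aligned by the authors to mm10 with BWA-MEM, peaks were called with HOMER 4.10.3 and annotated with ChIPseeker 1.20.0. Differential peaks passed a 2-fold limit. Whether replicates were pooled for calling, any p-value limit and whether reads were shifted for Tn5 are not given in the sources used here. The deposited files list peaks of 151 bp with a score per peak, whose scale the authors do not state, and hold no value per sample. The methods state a read depth for the libraries, but the reads behind a peak cannot be had from the files.

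Peaks were assigned, with their centre as position, to protein-coding genes of GENCODE M21 (same build). Every annotated transcript start of a gene counted as a TSS, including starts of internal non-coding transcripts. A promoter was within 3 kb of any TSS. Introns and exons were numbered on the longest coding transcript. Shares have 95% Wilson intervals and differences have Newcombe intervals (Python 3.11.15, scipy 1.17.1). The sum by length adds, over the genes of a group, the share of all genes of the same length class (under 20, 20 to 100, 100 to 300 and over 300 kb) with such a peak. A percentile is the share of the list at or below that score. Sequences came from GRCm38.p6 through pyfaidx 0.9.0.4. The assignment was tested on simulated peaks. The members, classes, lists and strings were chosen with earlier results of these data known. By the naming rule, each member is accounted for, with positions and scores for those with a promoter peak, a lost peak or at least 3 gained peaks and for the highest gained score of each class. Sequences are shown for the peak nearest a coding start within 1 kb, the highest gained score of the cardiac and neuronal genes and the highest lost score. Genes of other lists are named where they have a peak. Alternatives covered the assignment, the window, score limits, the TSS set, repeats and the classes.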

Additional observations from a re-analysis of the deposited data

How the results depend on the processing

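Of 83 alternative values, 73 stayed within 1.5 times the reported count or within its counting interval or spread. When each list was limited to scores at or above its own median, 51 gained peaks, 6 lost peaks and 5 genes with a lost peak remained assigned. With that limit 23 genes had a gained peak, 5 of them cardiac and 14 neuronal. The share of all genes under that limit is not given here. With a common score limit at the median of the lost list, 6 lost peaks, 5 genes with a lost peak and a cardiac lost share of 10.3% were found, although the lists need not share 1 score scale. Strict classes gave 3 of 4 cardiac and 12 of 16 neuronal genes with a gained peak. A promoter window of 1 kb gave 28.7% in place of 43.7%. With centres within 1000 bp counted as shared, 1 pair was shared between the lists. With 1 TSS per gene, 32 genes had a gained peak, and all 8 cardiac genes, Hcn4 included, did; across the other assignment rules and windows, 27 to 32 genes did. The alternatives for the lost shares of both classes, the settings without Cacna1c or Cacna1a, and nearest starts of transcripts annotated as coding were chosen after seeing the data.

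Leaving out each replicate was not possible, since the lists hold no value per sample. No paired analysis was possible because the columns carry no replicate and no result comes from a test between samples. The number of reads behind a peak is unknown, and the depth that a site needed to enter either list is not given in the sources used here.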
